A study of Schizosaccharomyces pombe with 8 samples.

Results

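The arrays labelled Δpka1 were compared with wild-type arrays of the fission yeast Schizosaccharomyces pombe across 4940 genes. The comparison took 2 arrays of strain YMP37 and 2 arrays of strain PR110 from a series of 8 arrays, and both sets were chosen by their labels alone. All strains of the series were of mating type h+ and carried leu1-32 and ura4-D18, and ura4-D18 removes the ura4 gene. PR110 had no further change, while YMP37 was pka1::ura4 and so carried a ura4 gene that its parent lacks. Each array came from a culture of its own, grown at 30 °C in 50 mL of the complete medium YES and taken in logarithmic phase after 8 h. Total RNA was copied into double-stranded cDNA, labelled with Cy3 and read on 1-colour NimbleGen arrays. YMP37 was the only pka1 strain arrayed, so a change private to that strain and a change made by the disruption cannot be told apart. Arrays of Δcgs1 (YMP41, cgs1::ura4, 2 arrays) are cited where the ura4 marker matters, because they carry it too. The 2 arrays of Δppt1 (OG1, ppt1::kanMX6) enter the estimate of the spread.

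In fission yeast, glucose outside the cell acts on the receptor Git3 and on the G protein made of Gpa2, Git5 and Git11, which switches on the adenylate cyclase Cyr1. The cAMP it makes binds Cgs1, the regulatory subunit of protein kinase A (PKA), and sets free Pka1, its catalytic subunit. PKA is known to hold down the gluconeogenic gene fbp1 and the mating regulator ste11 in cells that have glucose, in part by acting on the zinc finger protein Rst2, and cells without it mate more readily and resist stress better.

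All values are array signals on a linear scale, 1 per gene and array, and differences are log2 values of the arrays labelled Δpka1 minus wild type with the standard error (SE) of the fit. A gene was called where limma's adjusted p lay below 0.05, with the slide as a block, because 1 array of each strain shared each slide. Array medians were 21210 and 25475 in wild type against 21356 and 25039 in the arrays labelled Δpka1, the lower value on slide 1 in both. A signal of 2497 served as the background limit, and folds from below it are given as "at least". It was the highest reading among ura4 in strains without the marker and cgs1 and ppt1 in their own disruptants. That reading was of ppt1, while ura4 read at most 1627 in wild type. The disrupted pka1 was not used for the limit. At the top of the scale, 487 genes came within 10% of the highest signal (65239), where a fold is compressed. On slide 2 the array position in the title of the Δpka1 sample differed from that in the name of its deposited table, and the sample's label was followed. Both measured marker genes of P cells, the type that h+ strains are, were above background in wild type. The P-factor gene map2 read 4116 and 5046, and the receptor gene map3 read 11071 and 12998. Of the M-cell genes, mfm2 (M-factor) lay below the limit at 1883 and 1942, while mfm1, also for M-factor, read 3247 and 4698. The M-factor transporter gene mam1 read 9927 and 11221, and the P-factor receptor gene mam2 read 9217 and 12747. The 4 M-cell genes overlapped between wild type and the arrays labelled Δpka1 and none was called, with differences from -0.21 to 0.07.

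Signal for pka1 itself went against the label. Wild type gave 28743 and 34715 for it, and the arrays labelled Δpka1 gave 38387 and 46832. The disruptant was the brighter on both slides (0.42, SE 0.06, adjusted p = 0.00493, and 0.164 without the slide term), and the 2 arrays of Δcgs1 read 28563 and 34673, like wild type. The sources used here do not say where the probes lie relative to the inserted marker, so a bright signal does not tell whether the gene is whole. The marker ura4 (SPCC330.05c), which encodes orotidine 5'-phosphate decarboxylase of uracil synthesis, did follow the label. Its signals of 1362 and 1627 in wild type were background, against 32716 and 37383 in the arrays labelled Δpka1, at least 14-fold higher (4.55, SE 0.16, adjusted p = 9.91e-05). Δcgs1, with the same marker, gave 39913 and 44787 for ura4. The regulatory subunit gene cgs1 rose from 20232 and 28238 to 46361 and 54252 (1.07, SE 0.13, adjusted p = 0.00306). The leucine gene leu1, which all strains carry in mutant form, read 59218 and 61949 in wild type against 50527 and 56203 in the disruptant (-0.18, SE 0.05, adjusted p = 0.0327, and 0.409 without the slide term).

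Genes beside pka1 and beside the native ura4 locus were read as well. By the genotypes, the marker sits at pka1 in YMP37 and at cgs1 in Δcgs1. All strains carry ura4-D18 at the native locus, so values beside that locus do not read an insertion of the marker. The gene cut4, which encodes an anaphase-promoting complex subunit and lies next to pka1, was called higher by a small step (0.26, SE 0.05, adjusted p = 0.0160, and 0.435 without the slide term). On the other side of pka1, plg7 read 23657 and 29743 in wild type against 27597 and 30914 in the disruptant, and was not called. Next to the native ura4 locus, mug135 rose from 11808 and 13200 to 17282 and 17601 (0.48, SE 0.05, adjusted p = 0.00240). It was not called in Δcgs1, where the arrays read 11335 and 11216. SPCC330.03c, 2 genes from ura4, fell from 9544 and 11356 to 2903 and 2027 (-2.10, SE 0.19, adjusted p = 0.00128). Δcgs1 gave 18796 and 17872 for that gene, so the arrays of the 2 disruptants lay on opposite sides of wild type there (difference between them -2.92, adjusted p = 0.000462).

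Over all genes, 1908 of 4940 (38.6%) were called, 724 higher (14.7%) and 1184 lower (24%). Most of these differences were small, with a median size of 0.38 on the log2 scale. The split between higher and lower moved with the processing. Of the genes called, 37.9% were higher as reported, 51.2% without the slide term and 51.3% after cyclic loess between arrays. It was 48.6% without wild-type replicate 2 and 29.5% without wild-type replicate 1. Without the slide term only 418 genes (8.46%) were called, 4.33% of all genes higher and 4.13% lower, and arrays of the 2 strains overlapped in 388 of the 1908. The median difference of all genes was -0.04.

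A smaller set were the genes called with at least a 2-fold difference, 171 (3.46%), of which 120 rose (2.43%) and 51 fell (1.03%). The arrays of the 2 strains overlapped in 0 of these genes, 146 passed 2-fold on both slides taken alone, and 170 were also called without the slide term. The set was chosen on these same arrays, so such agreement is in part built in. With each of the 4 arrays left out in turn the set held 159 to 183 genes. With strains at background taken at the limit, 40 genes rose and 8 fell at least 4-fold, and 16 rose and 2 fell at least 8-fold. The line at 2-fold was narrow, with fmp40 at 1.002 and mak16 at -1.002 just inside it and aat1 at -0.99 just outside. As these were bulk cultures, fewer cells of a kind and less RNA per cell cannot be told apart for any of these genes.

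**Figure D1:**
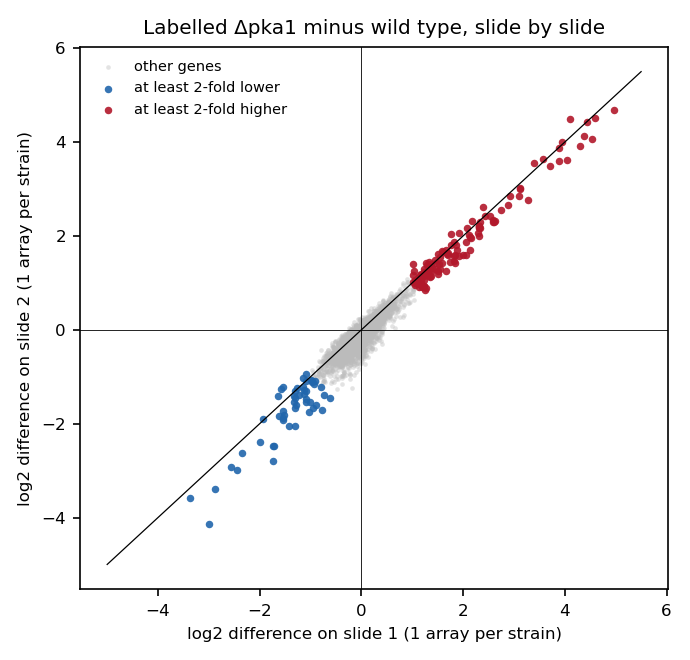
Log2 difference of each of the 4940 genes, arrays labelled Δpka1 minus wild type, on slide 1 (x axis) and slide 2 (y axis), with 1 array per strain and slide and the line of equality. The 120 genes called at least 2-fold higher (red) and the 51 called at least 2-fold lower (blue) keep their direction on both slides, and many of the falls were deeper on slide 2.

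Among the largest rises was that of eno102, 1 of 2 enolase genes. It read 1839 and 2401 in wild type, both below the background limit, and 57358 and 62059 in the arrays labelled Δpka1, close to the top of the scale. The gene was therefore at least 23.9-fold higher (4.83, SE 0.16, adjusted p = 9.30e-05), while its partner eno101 stood at the ceiling in both strains, between 64052 and 64649. The gene zym1, which encodes the metallothionein, a small metal-binding protein, rose from 2826 and 3974 to 46573 and 48728 (3.83, SE 0.13). The stress protein gene lsd90 rose from 2743 and 3892 to 54260 and 58733 (4.11, SE 0.15), and ddr48, named for a DNA damage response gene of budding yeast, rose from 4504 and 5659 to 59250 and 63336 (3.60, SE 0.12). In none of the 3 did the strains come near each other.

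Other rises of this size were in genes for which the reference table gives little or no name. The gene mug14 went from 2626 and 3833 up to 61146 and 63969 (4.30, SE 0.17), and SPCC1739.08c went from 3106 and 3575 up to 64427 and 62833 (4.25, SE 0.15). SPAC22A12.17c, below the background limit on 1 wild-type array, went from 2115 and 2685 up to 45930 and 58171 (4.44, SE 0.20). SPBC1289.14 was at or below the limit on both wild-type arrays (1282 and 1598) and read 18940 and 23473 in the disruptant, at least 8.44-fold higher (3.88, SE 0.11). Of the 120 genes that rose at least 2-fold, 45 had no symbol in the reference table. In Δcgs1 the genes of the 12 largest fitted rises lay between -0.44 and 0.07 of wild type, and each differed between the arrays labelled Δpka1 and Δcgs1 (adjusted p at most 0.000142). Between those 2 strains, which share the marker, 2041 genes (41.3%) were called, against 41 (0.83%) between Δcgs1 and wild type.

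**Figure D2:**
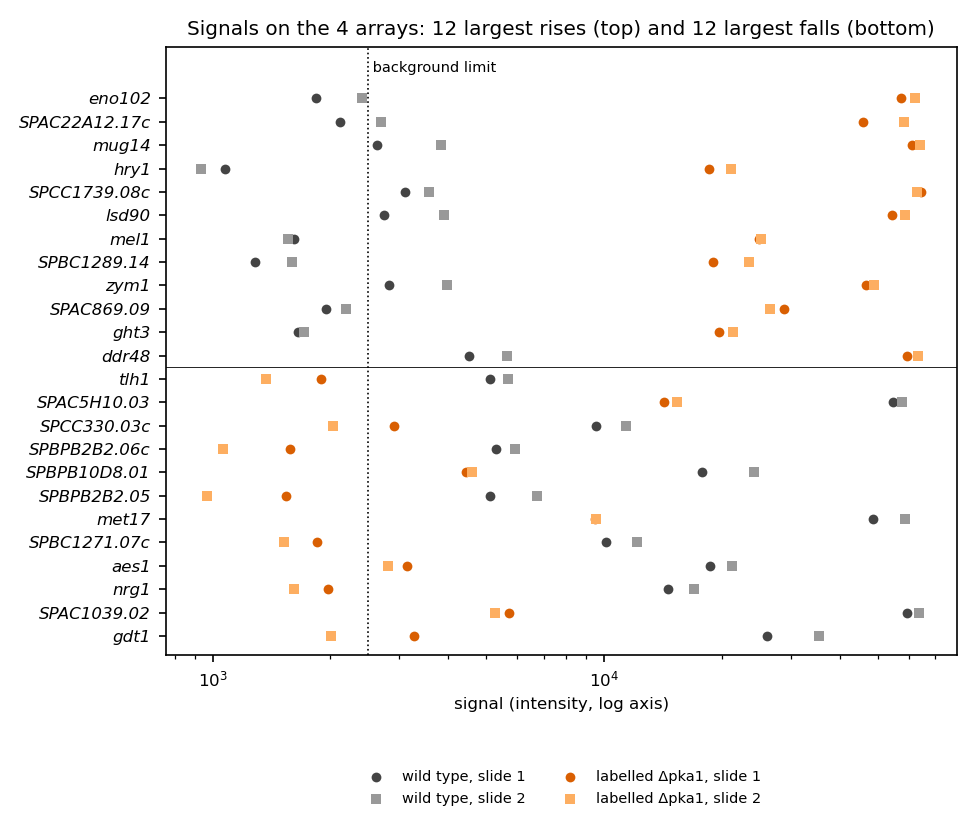
Signal on each of the 4 arrays (x axis, log scale) for the 12 genes with the largest fitted rises and the 12 with the largest fitted falls among genes whose arrays did not overlap, other than the targeted and marker genes. Circles are slide 1 and squares slide 2, and the dotted line is the background limit of 2497. Wild-type signals of the rising genes lie low on the scale, up to ddr48 at 4504 and 5659. The falling genes span the scale from tlh1 at 5108 and 5694 to SPAC1039.02 at 59388 and 63482.

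Genes for the use of carbon sources other than glucose were higher in number. Of 17 measured, 13 were called higher (76.5%, against 14.7% of all genes) and 2 lower (11.8%, against 24%). Without the slide term 10 and 1 were called. Of the 17, 8 rose at least 2-fold, and the list median was 0.96 against -0.04 over all genes. The gluconeogenic gene fbp1, fructose-1,6-bisphosphatase, read 6964 and 9053 in wild type against 59398 and 64880 in the disruptant (2.97, SE 0.10, adjusted p = 9.30e-05). The gene gcd1, a glucose dehydrogenase that feeds gluconate metabolism, rose from 7452 and 8374 to 56840 and 60270 (2.89, SE 0.09). The strains were far apart for both, by 7.82-fold and 7.41-fold. The signal of fbp1 ended near the ceiling, where its fold is compressed, and that of gcd1 just short of it.

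Secreted sugar hydrolases and enzymes of galactose and glycerol use were part of the same list. The alpha-galactosidase gene mel1 was below background in wild type (1617 and 1561) and read 24876 and 25128 in the disruptant, at least 10.0-fold higher (3.98, SE 0.16). The alpha-glucosidase gene agl1 rose from 11719 and 12755 to 44560 and 53306, or 3.99-fold (SE 0.06 on the log2 scale). Of the 3 galactose enzymes, gal10 rose by 1.70 (SE 0.09), gal7 by 1.05 (SE 0.08) and gal1 by 0.96 (SE 0.06). The glycerol dehydrogenase gene gld1 and the dihydroxyacetone kinase gene dak2, consecutive steps of glycerol breakdown, rose by 1.65 (SE 0.04) and 1.91 (SE 0.12). The list was not uniform. The mitochondrial alcohol dehydrogenase gene adh4 fell from 29090 and 33948 to 11614 and 11626 (-1.44, SE 0.10, adjusted p = 0.000565), and the invertase gene inv1 moved by 0.31 (SE 0.04), with arrays that overlapped and an adjusted p of 0.527 without the slide term.

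Of 8 hexose transporter genes, 6 were called higher (75%, against 14.7% of all genes) and 0 lower (against 24%). Without the slide term 5 were called higher, and the median was 0.81. The transporter gene ght3, known for gluconate uptake, was below background in wild type at 1654 and 1712 and read 19668 and 21272 in the disruptant, at least 8.19-fold higher (3.60, SE 0.14). The genes ght1 and ght4 moved alike. The first rose from 8006 and 10779 to 49619 and 53463 (2.47, SE 0.08), and the second from 8043 and 11062 to 48368 and 56193 (2.47, SE 0.08). The high-affinity glucose transporter gene ght5, bright already in wild type at 31754 and 36776, reached 63726 and 62116 (0.88, SE 0.10, adjusted p = 0.00239). In Δcgs1 it read lower than in wild type without being called (-0.73, adjusted p = 0.0570), and the difference between the 2 disruptants was 1.61 (adjusted p = 0.000367). The other bright transporters, ght2 and ght8, overlapped between strains and were not called.

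In glycolysis and fermentation the change sat in minor isoenzymes. Of 18 genes, 4 were called higher (22.2%, against 14.7% of all genes) and 1 lower (5.56%, against 24%), with a median of 0.00. In at least 1 strain 15 of the 18 were near the ceiling, so differences in the bulk of the pathway could not be measured. The pyruvate decarboxylase gene pdc201 rose from 8099 and 8604 to 42645 and 53072 (2.51, SE 0.09, adjusted p = 9.30e-05), and pdc202 rose by 0.95 (SE 0.06). Another member of that family, pdc102, went the other way, from 2451 and 3115 to 1312 and 1027 (-1.25, SE 0.16, adjusted p = 0.00356). It was at background in the disruptant, which allows a fall of at least 1.11-fold and no more. The main gene pdc101 read from 60142 to 64464 on the 4 arrays. The glyceraldehyde-3-phosphate dehydrogenase gene gpd3 was called higher by 0.56 (SE 0.11), a call that was lost without the slide term (adjusted p = 0.109).

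Upstream of PKA, several genes of glucose sensing were higher. Of 15 genes of the cAMP and PKA pathway, 8 were called higher (53.3%, against 14.7% of all genes) and 3 lower (20%, against 24%). This list is not limited to genes upstream of PKA, as it holds the PKA subunit gene cgs1. Without the slide term 3 were called higher and 0 lower. Those 3 were cgs1 and the genes of the receptor and its G protein beta subunit. The receptor gene git3 rose from 21526 and 27432 to 44180 and 50148 (0.95, SE 0.06, adjusted p = 0.000432), and git5 rose from 14691 and 19985 to 28761 and 39065 (0.97, SE 0.07, adjusted p = 0.000641). The G alpha gene gpa2 read 28462 and 34208 in wild type against 41731 and 51106 in the disruptant (0.57, SE 0.05, adjusted p = 0.00145, and 0.132 without the slide term). The adenylate cyclase gene cyr1 overlapped between strains (0.08, SE 0.08), as did git11, the G gamma gene. The cAMP phosphodiesterase gene cgs2 was called lower by a small step (-0.18, SE 0.05, adjusted p = 0.0436), a call lost without the slide term. Of the transcription factors, rst2 was higher by 0.38 (SE 0.04) and the glucose repressor gene scr1 by 0.17 (SE 0.05), both called with the slide term only.

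**Figure D3:**
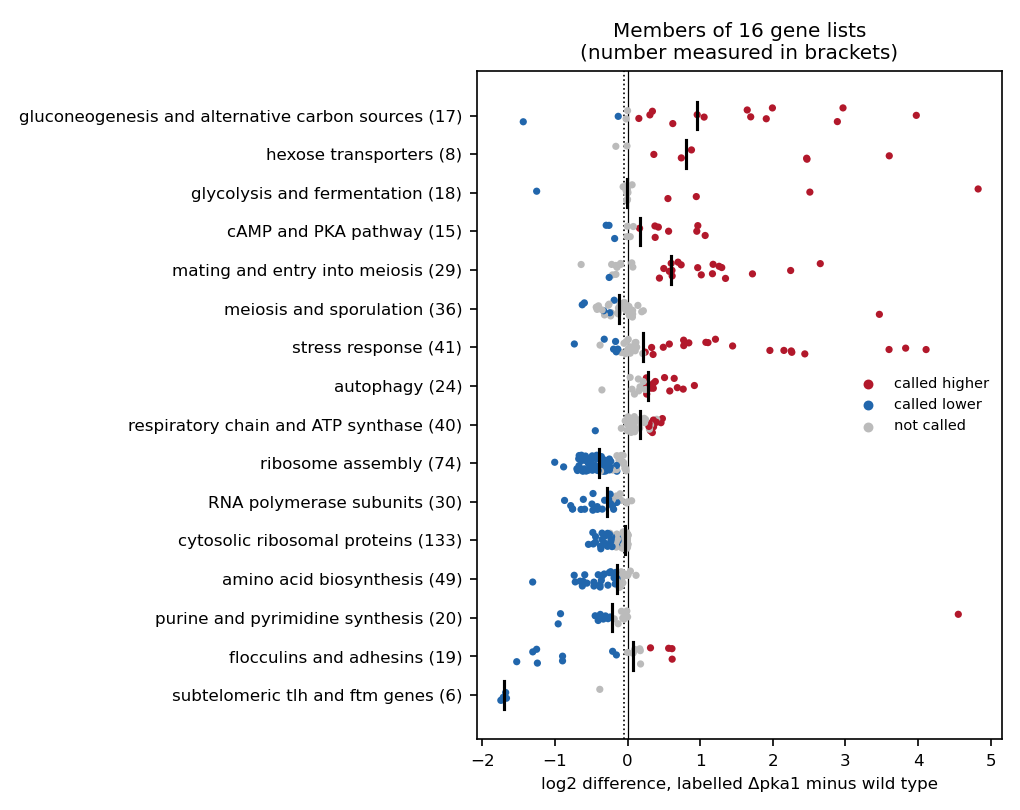
Log2 differences of the members of 16 gene lists (x axis, arrays labelled Δpka1 minus wild type), with each point a gene, red where called higher, blue where called lower and grey where not called. Black bars are list medians and the dotted line is the median of all genes (-0.04). The alternative carbon, transporter and mating lists have the highest medians (0.96, 0.81 and 0.60). Single genes of the glycolysis and stress lists reach further right, to 4.83 and 4.11. Ribosome assembly lies below 0 for all 74 members with the arrays scaled as deposited (4 lay above 0 after cyclic loess). The single red point of the purine and pyrimidine list is the marker ura4.

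Of 29 genes of mating and entry into meiosis, 18 were called higher (62.1%, against 14.7% of all genes) and 1 lower (3.45%, against 24%). Without the slide term 15 and 0 were called. The median was 0.60, and 9 rose at least 2-fold. The regulator gene ste11, which encodes the transcription factor that starts sexual differentiation, rose from 19746 and 23706 to 50680 and 55805 (1.30, SE 0.10, adjusted p = 0.000709). The gene mei2, whose RNA-binding protein starts meiosis, rose from 8875 and 9788 to 59554 and 57790 (2.65, SE 0.16, adjusted p = 0.000433). Arrays of the strains were well apart for both. In Δcgs1 mei2 read lower than in wild type without being called (-1.26, adjusted p = 0.0566), and the 2 disruptants differed by 3.91 (adjusted p = 0.000132). Among P-cell genes, the pheromone gene map2 rose from 4116 and 5046 to 20398 and 22915 (2.25, SE 0.19), the activator gene map1 from 2629 and 3578 to 9454 and 10803 (1.72, SE 0.13), and the receptor gene map3 by 0.97 (SE 0.09).

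Downstream of the receptor, the G alpha gene gpa1 rose from 12245 and 14556 to 27519 and 33173 (1.18, SE 0.05), and rgs1, whose product turns that G protein off, rose from 6537 and 8440 to 15734 and 22764 (1.35, SE 0.11). The adaptor gene ste4 of the kinase cascade rose by 1.26 (SE 0.14), the MAP kinase gene spk1 by 0.74 (SE 0.05) and the MAP kinase kinase kinase gene byr2 by 0.60 (SE 0.09). The MAP kinase kinase gene byr1 was higher by 0.44 (SE 0.04), called with the slide term only (adjusted p = 0.0775 without it). The small GTPase gene ras1 was the 1 member called lower (-0.25, SE 0.05), with overlapping arrays. The formin gene fus1, needed for cell fusion, was below background in wild type at 1756 and 2081 and read 3825 and 3906, at least 1.55-fold higher. The gene pat1, whose kinase keeps Mei2 inactive, rose as well (0.50, SE 0.08, adjusted p = 0.00684).

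Genes that act later in sexual development did not follow in number. Of 36 genes of meiosis and sporulation, 1 was called higher (2.78%, against 14.7% of all genes) and 5 lower (13.9%, against 24%). The list median was -0.11. The count of lower members ran from 0 to 14 with single arrays left out, at 14 without wild-type replicate 1 and 0 without wild-type replicate 2, so no direction is given for them. The 1 rise was isp3, a spore wall protein gene, from 2916 and 3057 to 30560 and 35703 (3.47, SE 0.21, adjusted p = 0.000408). The meiotic transcription factor gene mei4 overlapped between the strains (-0.10, SE 0.13), and mei3, the meiosis inducer gene, read 2479 and 3129 in wild type against 2124 and 1507 in the disruptant without a call. Of 91 genes named mug for their rise in meiosis, 23 were called higher (25.3%) and 17 lower (18.7%), and 5 rose at least 2-fold, mug14 among them. Without the slide term 7 and 2 were called, and without wild-type replicate 1 the balance turned to 14 higher and 26 lower. The counts were 21 and 9 without wild-type replicate 2, 13 and 7 without Δpka1 replicate 1 and 12 and 4 without Δpka1 replicate 2, so no direction is given for these genes either.

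Of 41 stress response genes, 20 were called higher (48.8%, against 14.7% of all genes) and 6 lower (14.6%, against 24%). Without the slide term 14 and 0 were called. Of the 41, 12 rose at least 2-fold, as did 2.43% of all genes. Beside lsd90, zym1 and ddr48, the small heat shock gene hsp9 rose from 8456 and 10974 to 50649 and 54035 (2.44, SE 0.08), and ish1, a nuclear envelope protein gene, from 12832 and 15602 to 53401 and 56773 (1.96, SE 0.07). Of 5 genes of the DJ-1 family of glyoxalases, 3 moved almost alike: hsp3101 rose by 2.15 (SE 0.09), hsp3102 by 2.25 (SE 0.16) and hsp3103 by 2.26 (SE 0.11). The family members hsp3104 and hsp3105 stood apart from them at 0.35 (SE 0.07) and 0.01 (SE 0.13). Such near copies may share probe signal, which was not tested here.

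Within redox defence, directions were mixed. The glutathione peroxidase gene gpx1 rose from 14803 and 17145 to 40758 and 46288 (1.45, SE 0.04), and the catalase gene ctt1 from 33045 and 38036 to 62881 and 64437 (0.84, SE 0.09). The manganese superoxide dismutase gene sod2 rose by 0.77 (SE 0.06, adjusted p = 0.000760). The peroxiredoxin gene tpx1, the thioredoxin gene trx1 and the thioredoxin reductase gene trr1 were among the 6 lower members (-0.13, -0.16 and -0.19), and none of these 3 was called without the slide term. The gene of the stress MAP kinase, sty1, overlapped between strains (0.04, SE 0.06), and its transcription factor gene atf1 was not called (0.21, SE 0.06, adjusted p = 0.0530). The heat shock gene hsp16 rose by 1.11 (SE 0.06) here and by 0.58 in Δcgs1 (adjusted p = 0.0386), and the 2 disruptants differed (0.53, adjusted p = 0.00307).

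Falls of over 4-fold were fewer than such rises. For gdt1, signals of 26030 and 35458 in wild type stood against 3273 and 2007 in the disruptant (-3.57, SE 0.30, adjusted p = 0.00101), with 1 disruptant array below the background limit. SPAC1039.02 fell from near the ceiling, 59388 and 63482, to 5729 and 5260 (-3.48, SE 0.07, adjusted p = 9.30e-05), and nrg1 fell from 14541 and 16982 to 1975 and 1611, at least 6.29-fold (-3.14, SE 0.13). SPBC1271.07c fell from 10133 and 12117 to 1853 and 1524, at least 4.44-fold, and aes1 from 18662 and 21249 to 3136 and 2806 (-2.75, SE 0.10). SPAC5H10.03 fell by less, 3.79-fold, from 54572 and 57464 to 14241 and 15317 (-1.92, SE 0.04). The strains were far apart for all 6, while the 2 arrays within a strain differed most for gdt1, whose fall was -2.99 on slide 1 and -4.14 on slide 2. In Δcgs1 none of the 6 was called against wild type (-0.48 to 0.09).

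The homocysteine synthase gene met17 fell from 48532 and 58595 to 9482 and 9547 (-2.49, SE 0.09, adjusted p = 9.94e-05). Of 21 sulfur assimilation genes, 6 were called lower (28.6%, against 24% of all genes) and 2 higher. The other 5 lower members reached at most -0.65 (met16) and were called with the slide term only, while the sulfate transporter gene sul2 rose by 1.19 (SE 0.05). The acid phosphatase gene pho1 fell from 61969 and 62364 to 21349 and 26708 (-1.38, SE 0.09, adjusted p = 0.000507). The gene pho4, of another acid phosphatase, stood at -0.57 (SE 0.07) and the phosphate transporter gene pho842 at -0.29 (SE 0.04), both called with the slide term only. The homoserine kinase gene thr1, of threonine synthesis, fell from 27074 and 31882 to 11010 and 12830 (-1.31, SE 0.05, adjusted p = 0.000113).

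Several genes of pyrimidine and purine handling were lower in the arrays labelled Δpka1. YMP37 carries ura4 and its wild type does not, and an effect of the marker on these genes was not tested. Of 20 synthesis genes, 10 were called lower (50%, against 24% of all genes), and 2 without the slide term. The 1 called higher was the marker ura4. The orotate phosphoribosyltransferase gene ura5 fell from 33887 and 39812 to 17759 and 20228 (-0.95, SE 0.04, adjusted p = 0.000154), and ade8, of purine synthesis, from 40387 and 48536 to 20450 and 26690 (-0.92, SE 0.05). Outside that list, 4 genes of nucleobase salvage and breakdown, picked out among the falls after their values were seen, fell at least 2-fold. Other genes of this kind were not counted, and dal1, named for allantoin breakdown, rose (1.05, SE 0.14, adjusted p = 0.00436). The uracil-regulated genes urg1 and urg2 stood at -1.08 (SE 0.07) and -1.37 (SE 0.04), the adenine deaminase gene dea2 at -1.37 (SE 0.05) and the guanine deaminase gene gud1 at -1.03 (SE 0.05). In Δcgs1, which has the same marker but also a disrupted cgs1, none of the 6 lower genes named here was called against wild type. There ura5 stood at -0.09, ade8 at 0.02, urg1 at 0.10, urg2 at 0.22, dea2 at 0.10 and gud1 at 0.19. All 6 differed between the arrays labelled Δpka1 and Δcgs1 (adjusted p at most 0.000413).

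A shift across nearly a whole list was seen in ribosome assembly, the nucleolar factors that process ribosomal RNA and build the subunits. Of 74 measured genes, 0 lay above 0, against 40.5% of all genes, and the median was -0.39. After cyclic loess 4 lay above 0, after quantile normalization 1, and without wild-type replicate 2 or Δpka1 replicate 2 also 1. Of the 74, 60 were called lower (81.1%, against 24% of all genes) and 0 higher (against 14.7%), and 12 lower without the slide term. The count was 44 to 51 with single arrays left out, and the list median stayed between -0.38 and -0.34 under 3 other scalings of the arrays. The size of the shift was small: mak16, of the large subunit, was the 1 member at 2-fold, from 11937 and 14081 to 6350 and 6597 (-1.002, SE 0.09, adjusted p = 0.00117). The gene rpf2 fell from 41598 and 50426 to 23215 and 26691 (-0.88, SE 0.05). Next came rrs1 at -0.67 (SE 0.08) and nop52 at -0.70 (SE 0.05), the latter not called without the slide term.

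Subunits of the RNA polymerases moved the same way, where 24% of all genes were called lower and 14.7% higher. Of 30 genes, 23 were called lower and 0 higher (6 lower without the slide term), with a median of -0.29, and 14 were called lower both without wild-type replicate 2 and without Δpka1 replicate 2. The RNA polymerase I gene rpa43 fell from 8306 and 11263 to 4812 and 5846 (-0.87, SE 0.09, adjusted p = 0.00203). The gene rpc19, of a subunit that polymerases I and III share, fell from 21712 and 24840 to 12101 and 15588 (-0.76, SE 0.07), and rpc10, the small subunit of all 3 polymerases, fell from 20098 and 21728 to 11354 and 13481 (-0.76, SE 0.05). Genes of the ribosomal proteins themselves could be judged less well. Of 133 cytosolic ones, 95 were near the ceiling. With the slide term 24 were called lower (18%, below the 24% of all genes), and without it 0. The largest difference was that of rpl3402 (-0.54, SE 0.06). The ribosomal proteins of mitochondria had a median of 0.00, with 6 of 38 called lower (15.8%, also below the 24% of all genes) and 0 higher.

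Amino acid synthesis also leaned to lower signal, where 24% of all genes were called lower and 14.7% higher. Of its 49 measured genes, 23 were near the ceiling in at least 1 strain. Of 49 genes, 24 were called lower and 0 higher (5 lower without the slide term), with a median of -0.15, and the count of lower members was 13 without Δpka1 replicate 1 and 14 without wild-type replicate 2. After thr1, the largest falls were those of hom3, aspartate kinase, from 47983 and 54189 to 29534 and 31825 (-0.73, SE 0.05, adjusted p = 0.000472), and of ser2, of serine synthesis, from 29973 and 38284 to 20145 and 21014 (-0.72, SE 0.08). Both strains were apart on each slide. In the list of nitrogen starvation and amino acid uptake, 4 of 20 were called higher and 7 lower (0 and 1 without the slide term, and 1 higher without wild-type replicate 1 or Δpka1 replicate 1). With the slide term these were 20% and 35% of that list, against 14.7% and 24% of all genes. The amino acid permease gene aat1 fell from 40612 and 50497 to 23277 and 22418 (-0.99, SE 0.10, adjusted p = 0.00214). Ergosterol synthesis had 10 of 23 genes called lower (43.5%, against 24% of all genes) and 1 higher (4.35%, against 14.7%). Only 1 of these calls, erg31, held without the slide term (-0.45, SE 0.05).

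Autophagy genes shifted upward by small steps. Of 24 genes, 23 lay above 0, against 40.5% of all genes, with a median of 0.28. Over all genes 14.7% were called higher and 24% lower. With the slide term 15 were called higher and 0 lower, and without it 3, while 10 were called without either array of the disruptant or without wild-type replicate 1. The ubiquitin-like protein gene atg8 read 11945 and 14442 in wild type against 20088 and 22228 in the disruptant (0.69, SE 0.06, adjusted p = 0.00121, and 0.0554 without the slide term). The mitophagy receptor gene atg43 rose from 6183 and 8610 to 12506 and 15257 (0.92, SE 0.10), and the protease gene atg4 from 5162 and 5990 to 8724 and 10262 (0.77, SE 0.08). For these 3 genes the strains did not overlap, but no member reached 2-fold.

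In the respiratory chain and ATP synthase, 35 of 40 genes lay above 0, with a median of 0.17. With the slide term 11 were called higher (27.5%, against 14.7% of all genes) and 1 lower. Single calls rested on the slide term: 1 gene, mic10, of the cristae-shaping complex of the inner membrane, was called without it (0.48, SE 0.04, adjusted p = 0.000800). With single arrays left out 6 to 10 members were called higher, the fewest without wild-type replicate 1. The NADH dehydrogenase gene ndi1 read 36536 and 42872 in wild type against 51937 and 57167 in the disruptant (0.46, SE 0.06), and the ATP synthase gene atp14 read 35206 and 39064 against 46806 and 51090 (0.40, SE 0.04). The copper chaperone gene cox17 was the 1 member called lower (-0.44, SE 0.07). In the tricarboxylic acid cycle 4 of 18 genes were called higher (22.2%) and in coenzyme Q synthesis 3 of 13 (23.1%), against 14.7% of all genes. In both 0 were called lower, and none of these calls held without the slide term.

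Surface proteins of the flocculin family, which bind cells to each other, split in direction. Of 19 flocculins and adhesins, 8 were called lower (42.1%, against 24% of all genes) and 4 higher (21.1%, against 14.7%). Of the 19, 4 fell at least 2-fold. The gene pfl3 fell from 42871 and 52561 to 13799 and 19712 (-1.53, SE 0.10, adjusted p = 0.000547), and gsf2, the main flocculin gene, from 42624 and 53597 to 25498 and 25925 (-0.89, SE 0.08). The genes pfl8 and pfl9 fell here and in Δcgs1, and pfl9 fell in Δppt1 too (-1.75, adjusted p = 0.000645), so that it was lower in all 3 mutants against the same 2 wild-type arrays. The first fell from 40408 and 46180 to 16901 and 19484 (-1.25, SE 0.06, against -1.09, adjusted p = 0.00576, in Δcgs1), and the 2 disruptants did not differ past the threshold for it (-0.16, adjusted p = 0.0812). The second, at -1.30 (SE 0.06) here and -1.02 in Δcgs1, differed between the 2 disruptants (-0.28, adjusted p = 0.0190). Iron genes were also split, with 4 of 22 called higher and 4 lower (18.2% each, against 14.7% and 24% of all genes). The ferric reductase gene frp1 rose from 14694 and 16938 to 36743 and 42031 (1.32, SE 0.06). In the lists not yet named, against 14.7% of all genes called higher and 24% lower, 2 of 6 genes of trehalose and glycerol metabolism were called higher and 1 lower, 5 of 28 of the cell wall higher and 3 lower, 8 of 50 of the cell cycle higher and 10 lower, 0 of 32 of the proteasome higher and 3 lower, and 0 of 10 histone genes either way. None of the members of these lists reached 2-fold, and without the slide term the only calls were in the cell wall list, 3 higher and 2 lower.

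Changes of 2-fold or more were frequent near chromosome ends. Of the 120 genes that are the outermost 20 measured at each of the 6 ends, 10 rose and 21 fell at least 2-fold (8.33% and 17.5%), against 2.29% and 0.604% of the 4798 genes inside. These counts take the fitted folds. Genes not assured of 2-fold because 1 strain was at background stay in them, and near-identical copies are counted separately. The right end of chromosome II held 3 of the rises and 7 of the falls, and the ends of chromosome III together 1 rise and 0 falls. The subtelomeric helicase genes tlh1 and tlh2 fell from 5108 and 5694 to 1893 and 1369 and from 3995 and 5478 to 1621 and 1320, at least 2.16-fold and 1.87-fold. The genes ftm1, ftm4 and ftm5, a repeated family of these regions, fell as well (-1.73, -1.71 and -1.67). Copies within each family are nearly identical, so the 5 values may read the same transcripts. In Δcgs1 tlh1 and tlh2 read lower without being called (-0.77 and -0.75), while the 3 ftm genes stood between 0.28 and 0.39.

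Runs of neighbours moved together in 3 places, counting at least 3 genes in a row that were called at least 2-fold in 1 direction. The longest, 5 genes near the right end of chromosome I, rose. The first 4 were at background in wild type, so SPAC869.09 was at least 11.1-fold higher, mel1 at least 10.0-fold, hry1 at least 7.91-fold and the protein methyltransferase gene pcm2 at least 1.69-fold, the last short of an assured 2-fold. The fifth, sul2, rose by 1.19 on the log2 scale from above background. Beyond it SPAC869.04 was below the limit on all 4 arrays, and SPAC869.03c was at least 1.70-fold higher. The other 2 runs lay on SPAC11D3 and its neighbour. SPAC11D3.02c fell from 41306 and 50757 to 14278 and 15262 (-1.63, SE 0.07), SPAC11D3.03c from 6254 and 6889 to 2134 and 1808 and SPAC11D3.04c from 38407 and 40710 to 18109 and 21065 (-1.02, SE 0.05). The adjoining SPAC11D3.01c rose from 11147 and 13042 to 56146 and 58779 (2.25, SE 0.06). In the last of these runs SPAC11D3.18c, dgc1 and hsp3102 rose by 1.67, 1.02 and 2.25, and the next gene, SPAC5H10.03, was among the 12 largest fitted falls.

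**Figure D4:**
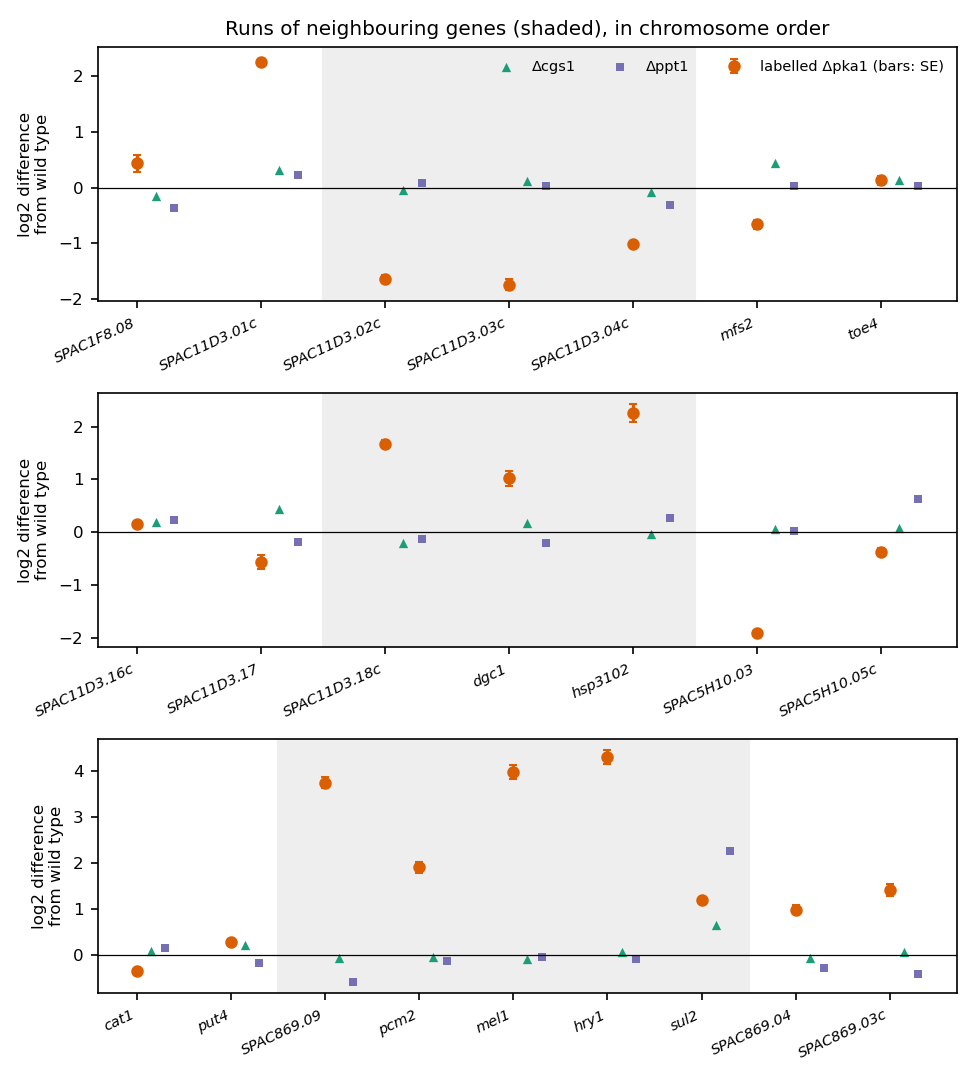
Log2 difference from wild type (y axis) for the 3 runs of neighbouring genes (shaded) and the 2 measured genes on each side, in chromosome order. Orange circles are the arrays labelled Δpka1 with their SE, green triangles Δcgs1 and violet squares Δppt1. The first run falls beside a rising gene, the second rises beside a falling one, and in the bottom panel sul2 is the 1 gene that also stands above 0.5 in Δcgs1 and Δppt1.

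Rises of 2-fold were fewer the brighter a gene was in wild type. With the genes in 5 equal groups of 988 by wild-type signal, 66, 37, 16, 1 and 0 rose at least 2-fold from the dimmest to the brightest group, and 19, 3, 12, 8 and 9 fell. A gene in the brightest group starts at 46676 or more and has little room below 65239. Of the 120 rises, 17 ended near the ceiling and their folds are too small by an unknown amount, while 8 of the 171 genes are not assured of a 2-fold change because 1 strain was at background. Rises that end high on the scale, such as those of fbp1 and mei2, are therefore not ranked against rises that end lower.

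**Figure D5:**
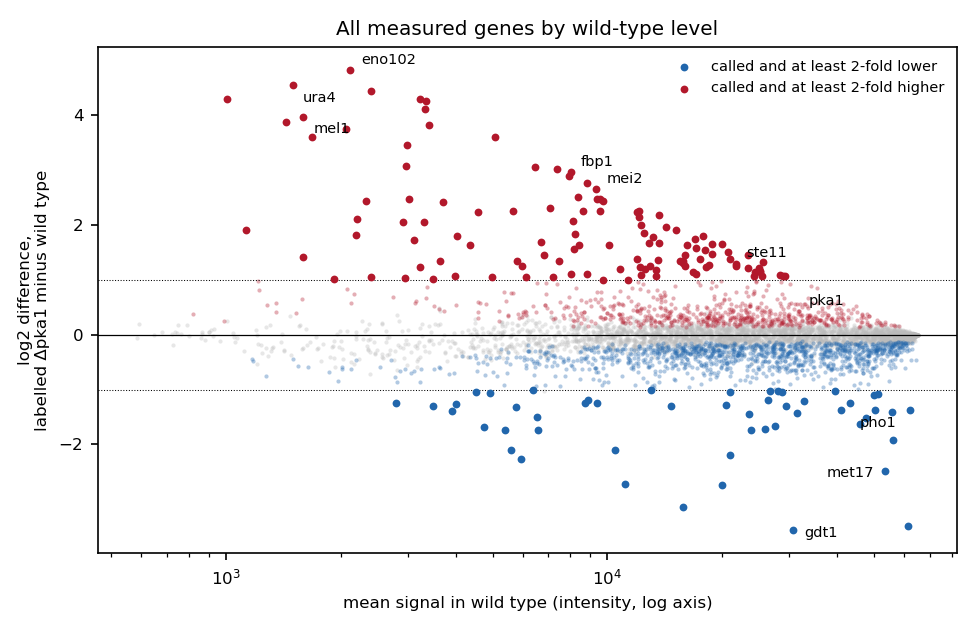
Mean wild-type signal (x axis, log scale) against the log2 difference of the arrays labelled Δpka1 from wild type (y axis) for 4940 genes. Large points are the genes called at least 2-fold higher (red) and lower (blue), small coloured points other called genes, and dotted lines mark 2-fold. Rises shrink toward the bright end, where 0 of the 988 brightest genes rose 2-fold, and falls occur along the whole scale.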

How the data were processed

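The deposited signals are intensity values on a linear scale, 1 summary per gene and array per the file headers, and the series value table was identical to them (largest difference 0). The sources used here do not say how the authors summarised probes or normalized arrays. A score column, an error of each summary per the file headers on an unstated scale, and a column of probe numbers (14 for 4922 genes) were not tested. Signals were taken to log2 with no further scaling and fitted with limma 3.58.1 in R 4.3.3 to all 8 arrays, with strain means and a slide term (3 residual degrees of freedom, two-sided moderated tests, Benjamini-Hochberg over 4940 genes). Precision is limited by having 2 arrays a strain. The titles put each replicate number on 1 slide, and same-slide deviations correlated in all 6 pairs of strains (r from 0.351 to 0.690, across genes). The fit was tested on simulated data.

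Names came from a RefSeq table that held 4918 genes, 4152 with a symbol, and gene order from the same table. Positions are left out because the files state no build, and a planned motif search was not done because no promoter sequences were at hand. The comparison, the 30 gene lists and all choices were made with earlier results of these data known, so lists get counts and no test. Named were the targeted and marker genes, the 12 largest rises and falls without overlap, up to 4 called members per list with others where of use for a family, runs of neighbours, and the brightest falls and dimmest rises. Genes beside pka1 and ura4 and those outside this rule were added after their values were seen. Alternatives were no slide term, 4 arrays only, 3 other scalings, dim or bright genes left out, limma-trend, and each array left out.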

Additional observations from a re-analysis of the deposited data

How the results depend on the processing

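Most dependent on the processing was the number of small calls. With slide as a replicate block 1908 genes were called. Without the replicate block 418 were (214 higher, 204 lower), and all 418 were among the 1908. After cyclic loess 1132 genes were higher. With 1 array left out in turn, 1051 to 1547 genes were called, 421 to 616 higher and 630 to 1090 lower, and 159 to 183 at least 2-fold. The fewest calls came without Δpka1 replicate 2 (1051), then without Δpka1 replicate 1 (1107). The split moved most with the wild-type arrays, to 652 lower without replicate 2 and 1090 lower without replicate 1. The genes called at least 2-fold numbered 159 to 183 under all 12 alternatives, and at least 168 of the 171 stayed called in their direction. Of 141 named genes, 51 lost their call without the replicate block, between 0 and 16 under each other alternative, and none changed direction. The cause was not tested. The background and the ceiling of the scan limit folds at both ends, and with 2 arrays per strain a gene that was not called may still differ.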
